A study of Mus musculus with 12 samples.

Results

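*Olfr543*, *Olfr544* and *Olfr545* are the β-class I odorant receptor (OR) genes of the mouse, the members of the class I cluster on chromosome 7 that lie on the centromeric side of the J element. They were taken as every probe set whose platform symbol is one of these names, which gave 3 probe sets, 1 per gene, of the 128 intact class I genes, the 1213 OR probe sets and the 35556 probe sets of the array. No probe set of theirs carried the symbol of another gene. RNA of the main olfactory epithelium (MOE), the nasal tissue that holds the olfactory sensory neurons (OSNs), was hybridised to 1 Mouse Gene 1.0 ST array per mouse, from 6 ΔJ and 6 wild-type mice, to learn how loss of the J element changes OR mRNA. The ΔJ mice, which the labels call J-knockout, carry a CRISPR-Cas9 deletion of the J element and comprised 3 males and 3 females, 5 taken at postnatal day 30 (P30) and 1 at P33. The wild-type mice, described as littermates, comprised 2 males and 4 females, 4 at P30 and 2 at P33. The labels give C57BL/6 as the strain of both groups.

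Several features of the line limit what the comparison can show. It descends from a single founder made in eggs of a C3H and C57BL/6 hybrid, and the arrays were run at the second backcross generation to C57BL/6. The β-class I genes lie close to the deletion and are inherited with it. An effect of the deletion and an effect of strain variants on the founder chromosome, in these genes or under their probes, cannot be told apart. In its results the paper uses the name ΔJ for homozygotes and compares these with wild-type littermates on the arrays. Its methods mention heterozygous mice of that generation for the array experiment. The labels say only knockout and give no zygosity for each mouse, so homozygosity rests here on the paper's definition.

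An OR is a G protein-coupled receptor in the cilia of an OSN, and each mature OSN transcribes a single allele of a single OR gene. Class I receptors are the family shared with fish, are encoded in a single cluster in mammals and are used mostly by OSNs of the dorsal zone of the MOE. OR choice depends on enhancers that act over long distances on genes of their own cluster, and the J element is such an enhancer for class I genes. *Olfr544* encodes a receptor for azelaic acid, a dicarboxylic acid. The RefSeq table lists MOR42-2, MOR42-3 and MOR42-1 as other names of *Olfr543*, *Olfr544* and *Olfr545*, and S50 as a further name of *Olfr545*.

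All 3 genes are transcribed from the minus strand of chromosome 7, so their 5′ ends face the deletion. The *Olfr545* probe set spans chr7:102493823-102494773 (mm10), and its 5′ end lies 14.9 kb from the edge of the deletion. The *Olfr544* probe set spans chr7:102484114-102485118, with its 5′ end at 24.6 kb, and the RefSeq transcript starts further upstream, 21.4 kb from the deletion. The *Olfr543* probe set spans chr7:102476858-102477868, with its 5′ end at 31.8 kb. The coordinates of the RefSeq models (GRCm38.p6, the assembly that mm10 names) cover *Olfr543* from 102476773 to 102477902 and *Olfr544* from 102484114 to 102488307. The model of *Olfr545* has the bounds of its probe set and begins with ATG, so it holds no sequence before the coding start and the bases before it need not be a promoter.

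The 250 bases before the annotated starts of *Olfr544* and *Olfr543* are shown because these genes had the largest and the smallest decrease of the group. Both are from RefSeq, on the minus strand, at chr7:102488308-102488557 for *Olfr544* and chr7:102477903-102478152 for *Olfr543* (GRCm38.p6), written 5′ to 3′ toward the start, with matches to the motifs searched in capitals.
Olfr544: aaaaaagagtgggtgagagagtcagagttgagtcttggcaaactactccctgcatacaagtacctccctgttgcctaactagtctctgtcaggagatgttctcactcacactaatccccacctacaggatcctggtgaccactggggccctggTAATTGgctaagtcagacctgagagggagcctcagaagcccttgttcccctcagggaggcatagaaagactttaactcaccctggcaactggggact
Olfr543: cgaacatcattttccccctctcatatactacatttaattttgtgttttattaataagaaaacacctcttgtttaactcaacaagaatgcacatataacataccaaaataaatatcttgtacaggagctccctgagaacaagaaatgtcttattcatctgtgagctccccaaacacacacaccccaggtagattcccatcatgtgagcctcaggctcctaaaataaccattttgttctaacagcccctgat
The windows of all 3 genes were searched on both strands for homeodomain letters (TAAT followed by TA, TG, GA or GG), for the core of the O/E site (CCCNNGGG) and for AAACTTTTC, letters of the J element, with no overlap between the matches. The only match to these letters was TAATTG in *Olfr544*, 97 to 92 bases before the start and on the strand of the gene. The CCCNNGGG core differs from the O/E-like site of the paper, YYYCARRRR (Y for C or T, R for A or G). That site was not searched, so no absence of it from these windows can be read here. A homeodomain match was present in 22.8% of 32841 RefSeq windows of this length and in 53.2% of 109 windows of class I genes. The O/E core was present in 11.8% of all windows and 2.75% of class I windows, and AAACTTTTC in 0.362% of all windows and 0% of class I windows. These matches are letters in a window and no measure of binding. The GC content of the windows was 51.6% for *Olfr544*, 37.6% for *Olfr543* and 49.2% for *Olfr545*.

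The β-class I genes all lost signal in ΔJ mice. *Olfr544*, the middle of the 3 by position, fell most, to 28.0% of the wild-type signal, *Olfr545* fell to 44.3% and *Olfr543* to 62.0%. These shares have no background subtracted, and background in the signal would make each decrease look too small. The values below are levels, deposited log2 signals minus the 75th percentile of their own array, so 0 is that percentile and a step of 1 is a doubling of signal. Levels of different probe sets depend on their probes as well as on mRNA and are not ranked against each other as amounts. In RNA of the whole MOE, fewer OSNs expressing a gene and less mRNA per OSN cannot be told apart. The paper counted OSNs by in situ hybridization, a stain for mRNA in tissue sections, and describes *Olfr544* as nearly abolished in ΔJ mice. Over the genes it counted, OSN numbers changed much as mRNA did, from which it concludes that the J element sets how probably a gene is chosen. For *Olfr545* the paper stained heterozygous mice whose intact chromosome carried a tagged copy of the gene. Every *Olfr545*-positive OSN there was positive for the tag. The paper concludes that the deletion abolished expression of *Olfr545* from its own chromosome. How much of the *Olfr545* signal left on the arrays is background is not fixed by these data.

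*Olfr544* levels ran from -3.55 through a median of -3.41 to -3.27 in the 6 ΔJ mice, against -1.75, -1.54 and -1.41 in the 6 wild-type mice. The genotypes were fully apart, with a gap of 1.52 between the highest ΔJ and the lowest wild-type level. The mean was -3.40 ± 0.12 in ΔJ mice and -1.57 ± 0.12 in wild-type mice (SD, n = 6 each), a log2 fold change of -1.84 (SE 0.10, 95% interval -2.05 to -1.62) at an adjusted p of 1.01e-08 from limma with Benjamini-Hochberg adjustment over the OR probe sets. The ΔJ levels lay within the range of the Y-linked gene *Kdm5d* in females, a gauge of background given below. They lay above the ranges of the Y-linked genes *Uty* and *Eif2s3y* in females. The decrease of 3.57-fold is a point estimate with no background subtracted, and background in the signal would make it too small. It had the smallest p of the 1213 OR probe sets, and also of the 35556 probe sets when all of them were fitted.

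*Olfr545* levels ran from -2.55 through a median of -2.19 to -2.06 in ΔJ mice, against -1.29, -1.06 and -0.84 in wild-type mice. The genotypes did not overlap, and the gap between them was 0.77. The mean was -2.26 ± 0.21 in ΔJ mice and -1.08 ± 0.18 in wild-type mice (SD, n = 6 each), a log2 fold change of -1.17 (SE 0.12, 95% interval -1.44 to -0.91) with an adjusted p of 7.3e-06 in the same limma fit. In both genotypes the lowest levels of *Olfr545* were those of replicate 4. The arrays of replicates 4 to 6 were lower than those of replicates 1 to 3 by -0.29 on the log2 scale (adjusted p = 0.00643, limma over all probe sets with genotype in the model). All P33 mice were in replicates 4 to 6, and the part of age in this difference was not tested.

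*Olfr543* levels ran from -2.75 through a median of -2.47 to -2.36 in ΔJ mice, against -1.95, -1.88 and -1.60 in wild-type mice. These groups did not overlap either, with the narrowest gap of the 3 genes, 0.41. The mean was -2.53 ± 0.18 in ΔJ mice and -1.84 ± 0.12 in wild-type mice (SD, n = 6 each), a log2 fold change of -0.69 (SE 0.11, 95% interval -0.92 to -0.46) with an adjusted p of 0.000479 in the same limma fit. Among males alone, 3 ΔJ and 2 wild-type mice, its log2 fold change was -0.83 with an adjusted p of 0.101 from limma. That is more than a 1.3-fold change, but the adjusted p was not below 0.05, so it was not called.

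**Figure D1:**
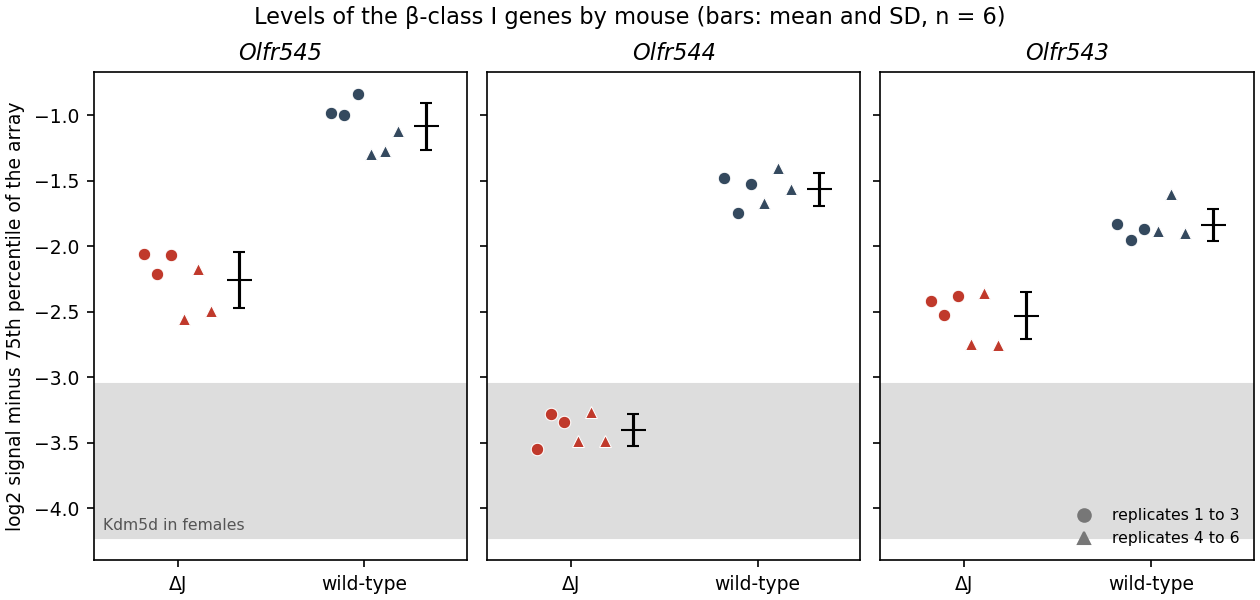
Level of each β-class I gene (vertical axis, log2 signal minus the 75th percentile of the array) in 6 ΔJ mice (red, left) and 6 wild-type mice (blue-grey, right), with circles for replicates 1 to 3, triangles for replicates 4 to 6, and mean and SD beside the points. The grey band, from -4.23 to -3.05, spans the 7 females' levels of the Y-linked gene Kdm5d, and of the 6 groups it holds only the ΔJ mice of Olfr544.

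The exact permutation test of each gene alone gave p = 0.00216, two-sided, for each of the 3, the smallest value that the 924 splits of 12 mice into 6 and 6 allow. The call of a decrease required more than a 1.3-fold change together with an adjusted p below 0.05, and all 3 genes met it. Among the OR probe sets 6.18% were called decreased (75 of 1213), and among the intact class I genes, these 3 included, 57.0% (73 of 128). The intact class I genes are counted here as probe sets, some of which carry several symbols. Their total and the number called differ slightly from those in the paper. The ΔJ range lay wholly below the wild-type range, as it did for these 3, in 5.36% of OR probe sets, 49.2% of intact class I genes and 0.259% of all probe sets. The median log2 fold change was -1.17 over the 3 genes, -0.53 over the intact class I genes, -0.04 over the class II probe sets and -0.05 over all OR probe sets. With 3 genes in a cluster where most genes fell, these counts single out no property of the β group. When all 35556 probe sets were fitted, 0.129% were called decreased (46 probe sets), and the adjusted p was 2.5e-07 for *Olfr544*, 0.000294 for *Olfr545* and 0.00556 for *Olfr543* with limma.

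By the size of their decrease the genes held different ranks in the class I family, and each fell by more than its median log2 fold change of -0.53. Among the 128 intact class I genes *Olfr544* ranked 2nd, *Olfr545* 16th and *Olfr543* 45th, with no background subtracted from any gene. The ranks ran from 2 to 4, from 14 to 20 and from 38 to 63 for the same genes over the alternative settings. Relative to all probe sets of the array, *Olfr544* was at percentile 20.5 in ΔJ mice and 50.1 in wild-type mice. *Olfr545* was at 38.8 in ΔJ mice and 58.1 in wild-type mice, and *Olfr543* at 34.0 in ΔJ mice and 45.4 in wild-type mice. These percentiles place array signal, which depends on the probes, and are no measure of relative mRNA amounts.

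How much signal was left depends on what an absent mRNA reads on this array, which no blank measures. *Kdm5d*, a Y-linked histone demethylase gene, served as a gauge, since the 7 females lack it. Its level in them averaged -3.72 and ran from -4.23 to -3.05. The ΔJ levels of *Olfr544* lay inside that range in all 6 mice, while those of *Olfr545* and *Olfr543* were above it in every mouse. The females averaged lower for the Y-linked genes *Uty* (-4.69) and *Eif2s3y* (-4.99), so the floor differs between probe sets. Their highest levels in females were -4.07 for *Uty* and -4.73 for *Eif2s3y*, below *Olfr544* in all 6 ΔJ mice. With the mean signal of *Kdm5d*, *Uty* or *Eif2s3y* in females subtracted, the share of wild-type signal left in ΔJ mice was 7.14%, 18.6% or 20.6% for *Olfr544*. The same subtractions left 33.6%, 39.3% or 40.3% for *Olfr545* and 47.8%, 55.9% or 57.2% for *Olfr543*. The share left of *Olfr544* thus depends on the gauge by over 2-fold and is not fixed by these data. The shares of *Olfr545* and *Olfr543* varied less among the gauges. No gauge measures the floor of their own probe sets, so these shares are not fixed either.

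The 3 decreases in array signal differed from each other. Whether the decreases in mRNA differ cannot be decided by this test, because each probe set may have a floor of its own. This was tested on the difference of 2 levels within each mouse, compared between genotypes with the exact permutation test, two-sided, over 3 pairs. *Olfr544* minus *Olfr543* ran from -1.13 through a median of -0.83 to -0.73 in ΔJ mice, against 0.19, 0.28 and 0.35 in wild-type mice. The genotypes did not overlap, and the gap between them was wider than the range of either. The log2 fold change of *Olfr544* was lower than that of *Olfr543* by -1.15 (SE 0.07, exact p = 0.00216, adjusted 0.00325).

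*Olfr544* minus *Olfr545* ran from -1.49 through -1.08 to -0.94 in ΔJ mice, against -0.75, -0.47 and -0.13 in wild-type mice. The groups did not overlap, and the log2 fold changes differed by -0.66 (SE 0.12, exact p = 0.00216, adjusted 0.00325). *Olfr545* minus *Olfr543* ran from 0.19 through 0.29 to 0.36 in ΔJ mice, against 0.33, 0.82 and 1.03 in wild-type mice. Here the groups overlapped, the wild-type mouse of replicate 5 lying among the ΔJ mice, and the log2 fold changes differed by -0.48 (SE 0.11, exact p = 0.00433, adjusted 0.00433). The differences of *Olfr544* from *Olfr543* and *Olfr545*, as given so far, have no background subtracted and were larger in size with it. Their value after background subtraction is set by the gauge, from -2.83 to -1.47 against *Olfr543* and from -2.32 to -0.97 against *Olfr545* over the 3 Y-linked genes, while that of *Olfr545* and *Olfr543* ran from -0.51 to -0.50. Each subtraction took the same floor from all 3 genes, and floors that differ among them were not tried.

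**Figure D2:**
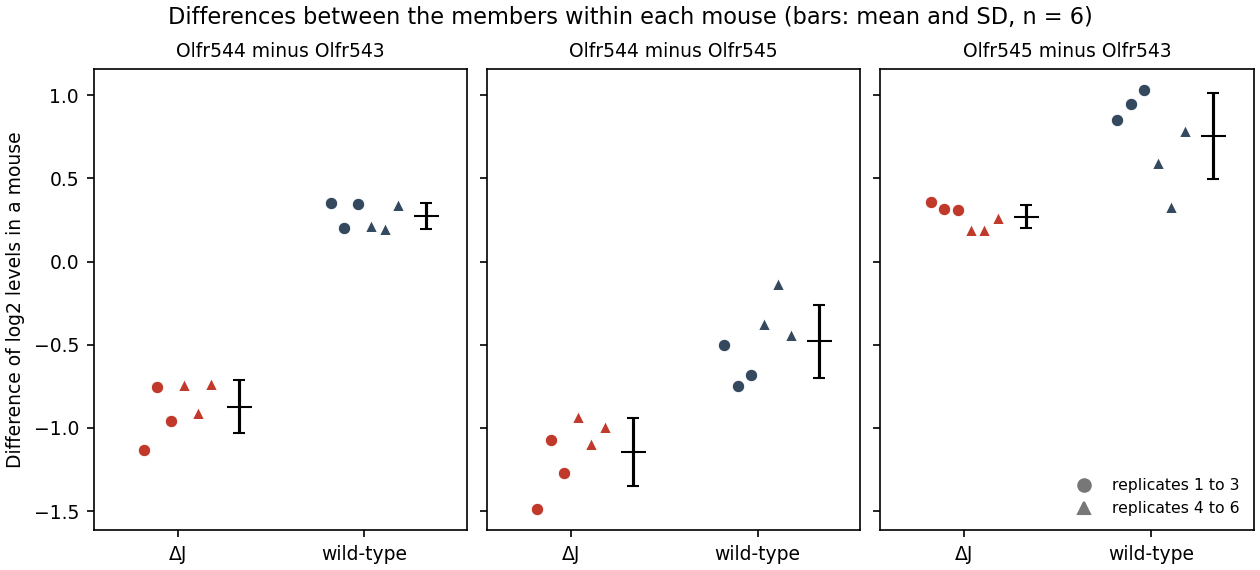
Difference between the log2 levels of each pair of β-class I genes within a mouse (vertical axis), in 6 ΔJ mice (red, left) and 6 wild-type mice (blue-grey, right), with circles for replicates 1 to 3, triangles for replicates 4 to 6, and mean and SD beside the points. ΔJ and wild-type mice are apart for both pairs with Olfr544, while for Olfr545 minus Olfr543 the lowest wild-type value, 0.33, lies below the highest ΔJ value, 0.36.

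The size of the decrease in signal did not follow the distance to the deletion within the group. *Olfr545* is the nearest at 14.9 kb, *Olfr544* lies between, and *Olfr543* is the farthest at 31.8 kb, whereas *Olfr544* fell most. On the telomeric side, which holds the other 125 intact class I genes, the nearest is *Olfr547*, 23.1 kb from the deletion. *Olfr547* had a mean level of -4.72 in ΔJ mice and -4.68 in wild-type mice, under the range of *Kdm5d* in females in both genotypes, so its log2 fold change of -0.04 (SE 0.13, adjusted p = 0.995, limma) measures little. The 4 intact class I genes after it, at 42.6 to 92.7 kb, were all called decreased, with log2 fold changes from -2.67 to -0.56, a range that encloses the 3 β-class I values.

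**Figure D3:**
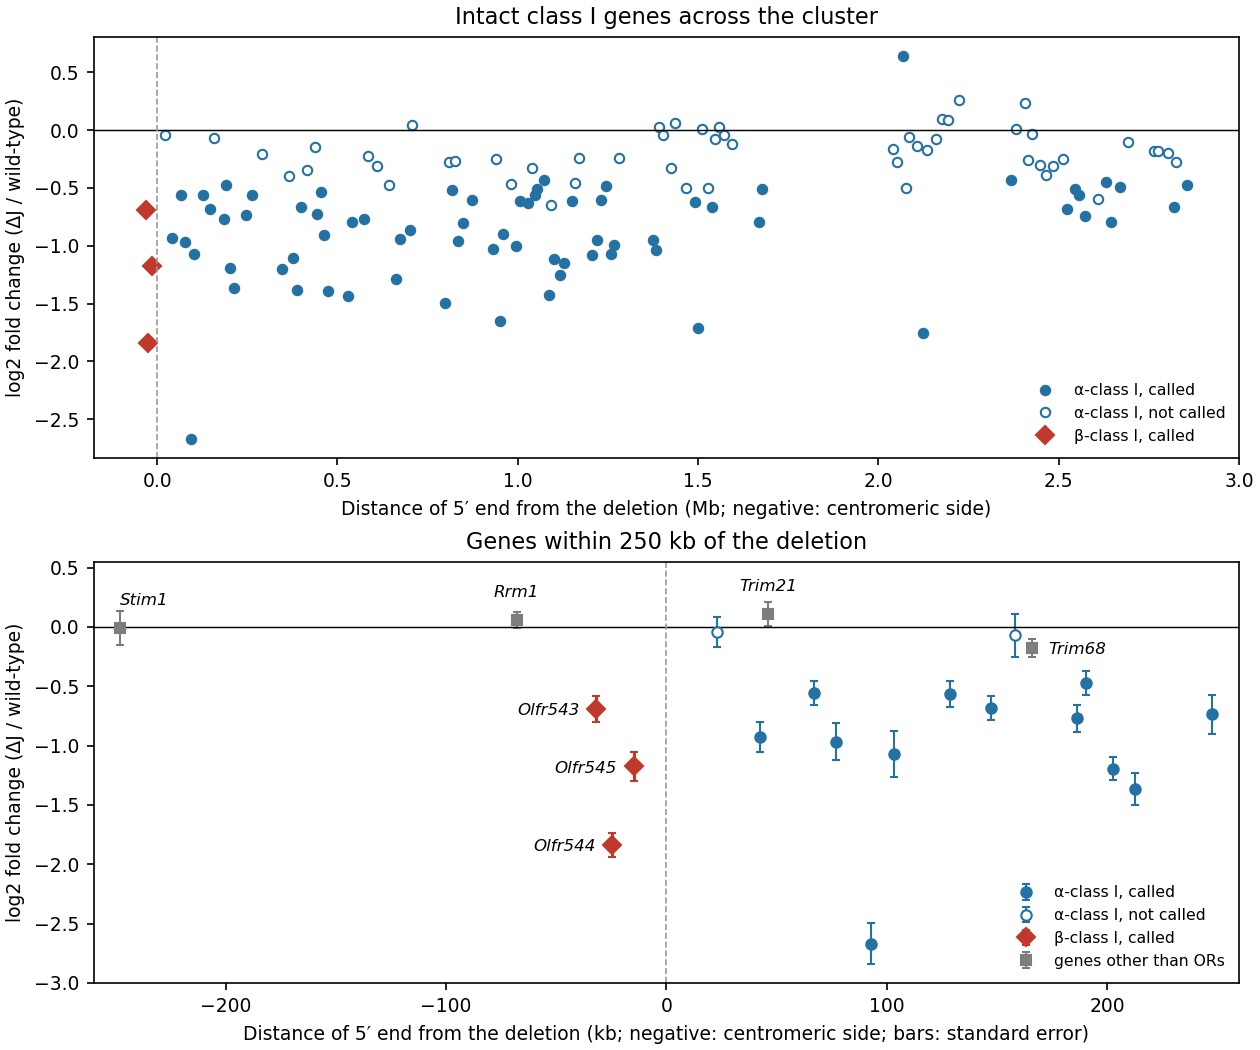
Log2 fold change of ΔJ over wild-type mice (vertical axis) against the distance of the 5′ end of each probe set (for genes other than ORs, of the annotated start) from the deletion, in Mb across the cluster (upper panel) and in kb within 250 kb with standard errors (lower panel), with the centromeric side negative. The β-class I genes (red diamonds) at -31.8 to -14.9 kb have values of -0.69, -1.84 and -1.17 and the 4 genes other than ORs (grey squares) lie between -0.18 and 0.11.

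Genes other than ORs around the deletion were not called. Within 250 kb, 4 such genes were measured, 2 on each side, and 0 passed limma over all probe sets at an adjusted p under 0.05, with 1 at an unadjusted p under 0.05. *Rrm1*, which encodes a subunit of ribonucleotide reductase, is the nearest on the side of the β-class I genes and averaged 0.05 ± 0.12 in ΔJ mice and -0.01 ± 0.06 in wild-type mice (SD, n = 6 each), a log2 fold change of 0.06 (SE 0.07). *Stim1*, a calcium sensor of the endoplasmic reticulum, is farther out on that side and had a log2 fold change of -0.01 (SE 0.14). On the telomeric side *Trim21*, an antibody receptor and ubiquitin ligase, had 0.11 (SE 0.10). *Trim68*, named after its values were seen, had -0.18 (SE 0.08, unadjusted p = 0.0435, adjusted p = 0.993, limma).

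The profile of each gene over the 12 arrays, taken relative to its own wild-type mean, was compared with that of every probe set of a single gene. The likeness is the root mean square difference on the log2 scale, and since the profiles hold the change between genotypes, the closest genes are bound to have a decrease of like size. For *Olfr543* they were *Olfr678* (0.183), *Olfr555* (0.183) and *Olfr557* (0.191), with log2 fold changes of -0.56, -0.69 and -0.77. For *Olfr545* they were *Olfr569* (0.189), *Olfr620* (0.192) and *Olfr566* (0.193), with log2 fold changes from -1.20 to -1.11. *Olfr544* had no profile as close. Its decrease ranked 2nd among the 128 intact class I genes, so few profiles could lie near it. Its nearest were *Olfr607* (0.236), *Olfr657* (0.326) and *Olfr582* (0.367), with log2 fold changes of -1.65, -1.75 and -1.44. All 9 are intact class I genes of the telomeric side, and *Olfr678* and *Olfr657* lie over 2 Mb from the deletion.

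The decreases were present in both sexes, both ages and both sets of arrays. The spread of an array's values separated 2 sets of arrays, with an SD of 2.20 to 2.23 in replicates 4 to 6 and 2.07 to 2.13 in replicates 1 to 3 of both genotypes, and 42.2% of all probe sets differed between the sets. Replicates 1 to 3 were all P30 and every P33 mouse was in the other set, so array set and age are partly confounded. Within the set of replicates 4 to 6 the log2 fold change was -1.87 for *Olfr544*, -1.18 for *Olfr545* and -0.82 for *Olfr543*, and within that of replicates 1 to 3 it was -1.81, -1.17 and -0.56 for the same genes. In males it was -1.97 for *Olfr544*, -1.20 for *Olfr545* and -0.83 for *Olfr543*, and in females -1.75, -1.17 and -0.60. The P33 mice were too few to fit alone (1 ΔJ, 2 wild-type), and among the P30 mice alone it was -1.78, -1.18 and -0.60 for these genes in the same order. In every one of these strata all ΔJ mice were below all wild-type mice. No interaction of genotype with sex (adjusted p of 0.968, 0.968 and 0.992 for *Olfr543*, *Olfr544* and *Olfr545*) or with array set (0.991, 0.991 and 0.998) passed limma, and 0 of the 1213 OR probe sets did. With so few mice per stratum, intervals of these differences are wide, for example -0.23 with an SE of 0.22 for *Olfr543* in males minus females.

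**Figure D4:**
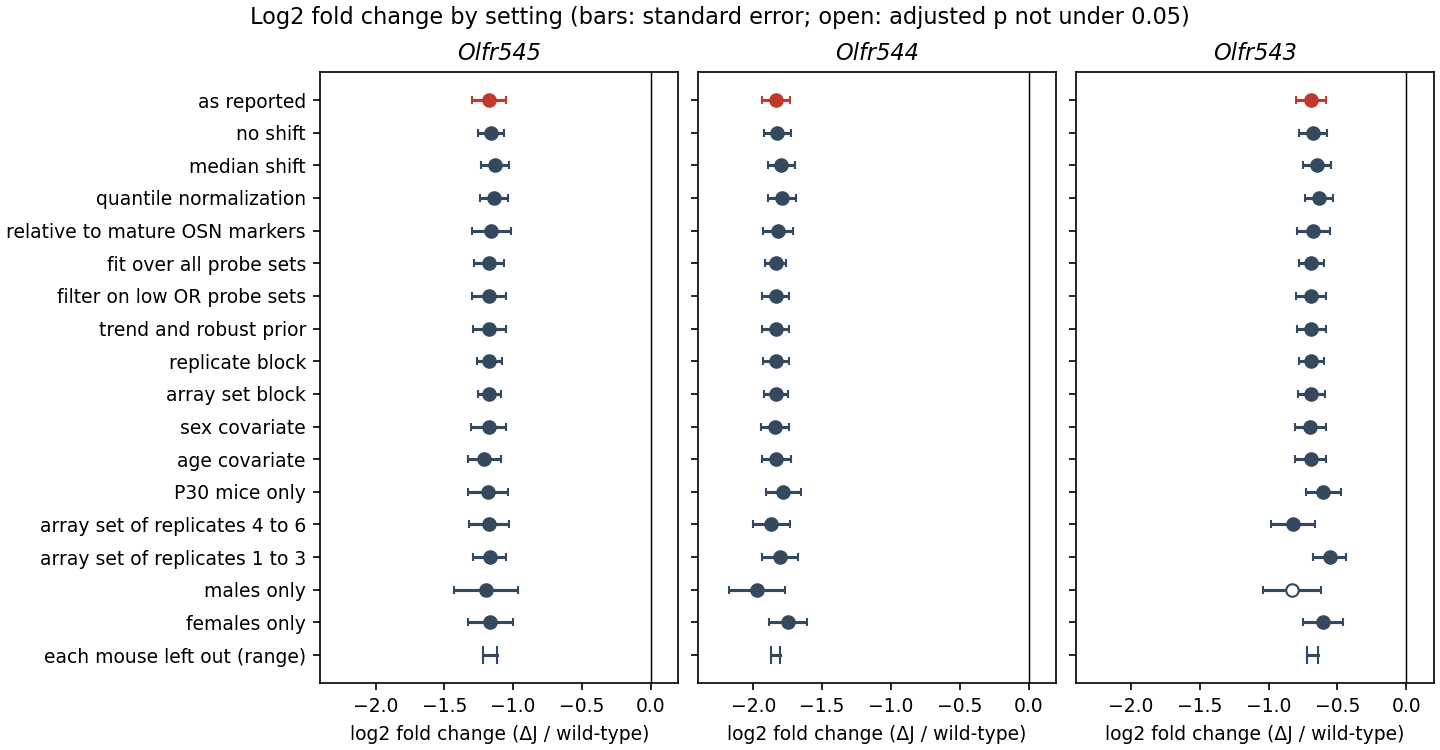
Log2 fold change of ΔJ over wild-type mice for each β-class I gene (horizontal axis) under each processing or subset of mice (rows), with standard errors, the value as reported in red, and an open circle where the adjusted p is not under 0.05. Over all rows Olfr544 lies between -1.97 and -1.75, Olfr545 between -1.22 and -1.12 and Olfr543 between -0.83 and -0.56, and the open circle is Olfr543 in males only.

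Markers of the cells in the tissue were set beside these values. *Omp*, the marker of mature OSNs, averaged 3.98 ± 0.02 in ΔJ mice and 3.95 ± 0.07 in wild-type mice, and *Gnal*, the G protein subunit that couples ORs to adenylyl cyclase, 3.93 ± 0.29 in ΔJ mice and 4.08 ± 0.14 in wild-type mice (SD, n = 6 each). The mean of 12 mature OSN genes was 3.01 ± 0.07 in ΔJ mice and 3.03 ± 0.05 in wild-type mice (exact permutation p = 0.665, two-sided), and that of 12 genes of odorant transduction and receptor transport, mostly the same genes, 2.60 ± 0.06 in ΔJ mice and 2.62 ± 0.04 in wild-type mice. The dorsal zone list, 4 genes led by *Nqo1* and *Acsm4*, averaged 0.96 ± 0.06 in ΔJ mice and 0.96 ± 0.02 in wild-type mice, and the ventral zone list, 3 genes, 1.57 ± 0.18 in ΔJ mice and 1.58 ± 0.13 in wild-type mice. The 6 immature OSN genes averaged 1.93 ± 0.03 in ΔJ mice and 1.87 ± 0.07 in wild-type mice (exact permutation p = 0.0844, two-sided, adjusted 0.929 over the 11 lists). The lists for sustentacular cells, progenitor and basal cells, respiratory epithelium and Bowman gland, glia and olfactory bulb, endothelium and blood, and immune cells had median log2 fold changes from -0.04 to 0.11. No gene of the 11 lists was called with limma over all probe sets, and 1, of the immature OSN list, had an unadjusted p under 0.05. With the mean of the mature OSN genes in place of the 75th percentile as the reference of each array, the log2 fold changes were -1.82 for *Olfr544*, -1.16 for *Olfr545* and -0.67 for *Olfr543*, and all 3 genes were called.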

How the data were processed

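The 12 Affymetrix Mouse Gene 1.0 ST arrays held MOE RNA of 6 ΔJ and 6 wild-type mice, and genotype, sex, age and replicate number came from the labels. The values deposited by the authors are log2 signals, 1 per mouse for each of the 35556 probe sets. Affymetrix Expression Console is named in the submitters' processing notes, and how it corrected background and summarized probes is not given in the sources used here. In its methods the paper names GeneSpring GX 14, a 75th percentile shift and a moderated test over the 1213 OR probe sets.

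The 75th percentile of each array was subtracted, and limma 3.58.1 (R 4.3.3) was run on the OR probe sets with genotype as its term, lmFit then eBayes, and Benjamini-Hochberg adjustment. Genes other than ORs were fitted over all probe sets. Exact permutation tests, two-sided, ran over all 924 splits of the mice. A single symbol was given for 21789 probe sets, several for 1621 and none for 12146. The number of arrays limits the precision. The replicates are separate mice.

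The 3 genes, the marker lists and the tests were chosen with earlier results of these data known. The rule for named genes took the 3 members, the nearest OR gene across the deletion, *Stim1*, *Rrm1* and *Trim21*, the 3 closest profiles of each member and the leading genes of the marker lists. The lists covered mature and immature OSNs, dorsal and ventral zone, sustentacular cells, progenitor and basal cells, respiratory epithelium and Bowman gland, glia and olfactory bulb, endothelium and blood, immune cells, and odorant transduction.

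The deviations of same-numbered ΔJ and wild-type mice from their genotype means correlated at 0.185 to 0.441, above 0.1 in all 6 pairs, and a fit blocked on the numbers was run. Only 1 of the 6 ΔJ mice correlated best with the wild-type mouse of its own number. No source used here says what the numbers share, and they also follow the 2 array sets. The array set was not removed from the deviations, so their correlations cannot tell pairing by number from a shared array set. No 2 arrays were identical, and sex-linked genes fitted the sex on the label in each of the 12 mice. The steps were tested on simulated data. Scaling, probe sets fitted, blocks, covariates, subsets of mice and leaving out each mouse were tried as alternatives.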

Additional observations from a re-analysis of the deposited data

Results flagged for a closer look

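The wild-type mouse of replicate 5 stood apart in *Olfr543*. Its level of -1.60 was the highest of the 6 wild-type mice, and the other 5 lay between -1.95 and -1.83. Its gap to the nearest mouse was 0.668 of the range of the group. Of 34 groups of values examined in this way, 1 stood apart, and chance flags about 1 group in 20. The mouse was a P33 male, and the only one of that kind among the wild-type mice. Without it the log2 fold change of *Olfr543* was -0.64 (adjusted p = 0.00156, limma). The part of age or sex in its level was not tested.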

How the results depend on the processing

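All 3 genes kept their decrease in every setting tried, and all but *Olfr543* in males only (-0.83, adjusted p = 0.101, limma) stayed past the threshold on the adjusted p. That subset holds 5 mice. With each mouse left out in turn, the log2 fold change ran from -1.87 to -1.81 for *Olfr544*, -1.22 to -1.12 for *Olfr545* and -0.72 to -0.64 for *Olfr543*, all 3 genes were called, and 63 to 77 OR probe sets were called, against 76 in both directions with all mice. The count was 46 in the fit over all probe sets, where more probe sets share the adjustment, and 24 in males only. The differences between the log2 fold changes ran from -1.18 to -1.10 (*Olfr544* and *Olfr543*), -0.72 to -0.59 (*Olfr544* and *Olfr545*) and -0.57 to -0.43 (*Olfr545* and *Olfr543*) with each mouse left out.

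With the replicate number as a block, the 3 genes were again called, and 86 OR probe sets were called against 76 without it. The differences among the 3 genes had the same sign in 6 of 6 same-numbered pairs of mice (exact sign-flip p = 0.0312, the smallest that 6 pairs allow). For the differences with *Olfr544* any pairing of the mice gives this result, because the genotypes did not overlap, so it adds no support there. The block changed no call of the 3 genes, of their differences or of the 4 genes around the deletion, and was not run for the interactions or marker lists. The interactions under other fits, the *Uty* and *Eif2s3y* gauges, and the blocks and scalings for the genes around the deletion were chosen after seeing the data. Under quantile normalization the interaction with array set turned positive, 0.051 for *Olfr544* and 0.11 for *Olfr545*, with an adjusted p of 0.992 for each from limma. The cause was not tested. Shares of signal left after background subtraction are given above for 3 gauge genes, and that of *Olfr544* (7.14%, 18.6% or 20.6%) moved most.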
